A study of Mus musculus with 4 samples.

Results

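The comparison described here is between 2 of the 4 arrays of a study on mouse bone marrow-derived dendritic cells (BMDC), the array of BMDC cultured in tumour-conditioned medium and the array of BMDC cultured alone. They were chosen by their sample titles. All 4 cultures started from bone marrow of male C57BL/6 mice aged 6 to 8 weeks, grown with 500 U/ml GM-CSF for 7 days. A protocol text common to all samples says that cocultured BMDC were sorted with a fluorescein-labelled antibody to the costimulatory protein CD80. Whether the control and conditioned medium cells went through the same sort is not given in the sources used here. In the conditioned medium culture, 25% (v/v) of the medium was supernatant of 1D8, a mouse ovarian tumour line, and no tumour cell was added. Cultures with live 1D8 cells at 1 tumour cell to 5 BMDC, and with 1D8 cells that had received 50 Gy, are the other 2 arrays and are used only for comparison. How long the supernatant was left on the cells, and how many mice gave each culture, is not given in the sources used here. There was 1 array for each condition, so no value below has an error and no difference was tested. The words higher and lower describe these arrays only.

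GM-CSF drives myeloid progenitors of the marrow towards cells with features of dendritic cells and of macrophages, and such cultures also keep some granulocytes and dividing precursors. Type I interferon, bound by its receptor, activates the kinases TYK2 and JAK1, and these activate transcription factors that include STAT2 and IRF9, which bind a short DNA element called ISRE in front of many antiviral genes. Signals of bacterial products, interleukin 1 or tissue damage act largely through another factor, NF-kappaB, on chemokine and cytokine genes. The title of the series concerns Toll-like receptor 3, a sensor of double-stranded RNA, and the block of TYK2 by the feedback inhibitor SOCS3.

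Values are MAS5 signals, the linear intensity that Affymetrix software derives for each probe set, which is a group of short probes for a transcript. Each of 18193 genes was represented by its brightest probe set. Signals under 44.3, the median of all signals of the series, were raised to that floor before a log2 ratio was taken, and genes at least 2-fold apart were counted as higher or lower. Control cells gave a median signal of 38.7, and the 3 treated arrays medians of 45.3 to 46.8. Between 58.8% and 62.5% of genes exceeded the floor, and the 3'/5' ratio of Actb probe sets, which gauges how intact the RNA was, ran from 1.12 to 1.3.

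In conditioned medium 419 genes were higher than in the control, 2.3% of all genes, and 256 were lower, 1.41%. Of the 11662 genes above the floor on either array the shares were 3.59% and 2.2%. This split depended on the scaling, with quantile normalization giving 284 higher and 339 lower, and median centring 315 and 386. Live coculture gave 612 higher (3.36%) and 406 lower (2.23%), and irradiated coculture 632 higher (3.47%) and 409 lower (2.25%). These comparisons share the control array. The coculture arrays themselves differed 2-fold in 122 genes (0.671%). Over 10293 genes above the floor in both conditions, the SD of the log2 ratio of conditioned medium to control was 0.51, and the SD between the coculture arrays was 0.308 for the same genes. Where a gene had a second probe set above the floor, the log2 ratios of its brightest and second probe sets were compared, over 4315 genes. The SD of their difference, divided by the square root of 2, was 0.398. This is a spread per probe set, and the difference itself had a wider spread. Of 218 such genes that were 2-fold apart at their brightest probe set, the second had the same direction for 190 (87.2%) and was 2-fold apart itself for 64 (29.4%).

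**Figure D1:**
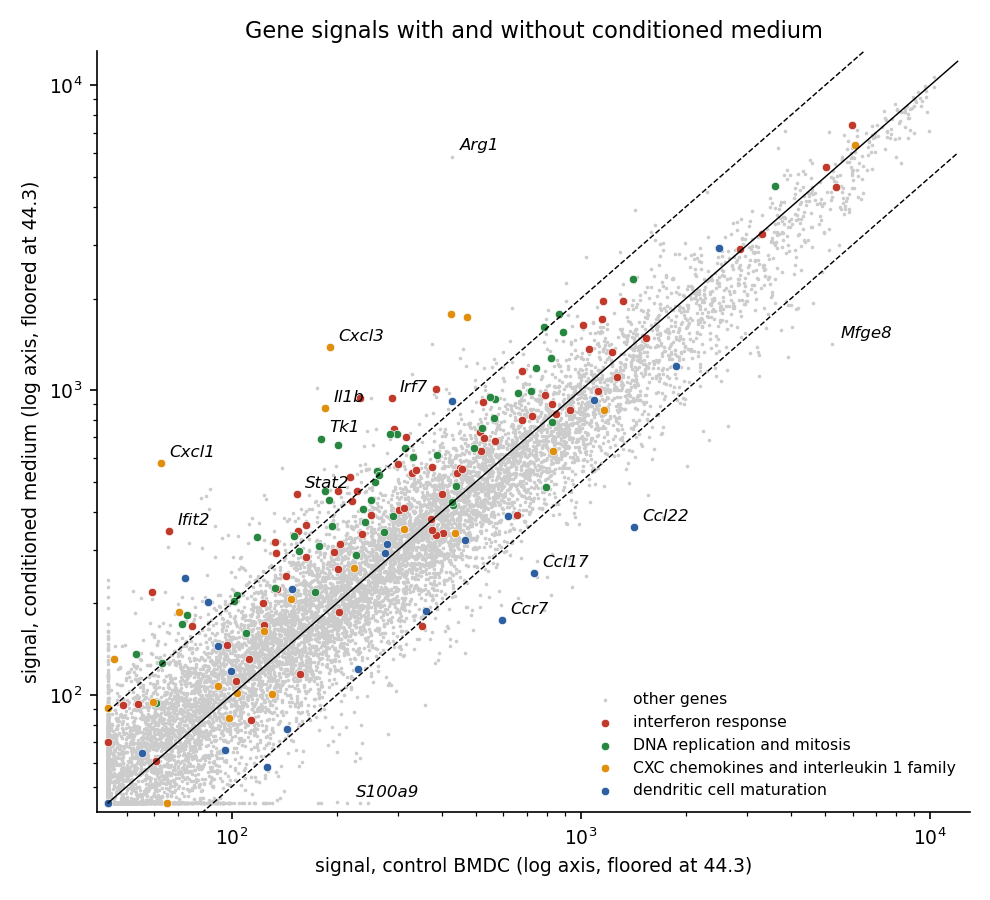
Each point is 1 of 18193 genes, with its signal on the control array on the x axis and on the conditioned medium array on the y axis, both on log axes and floored at 44.3. The solid line marks equal signals and the dashed lines 2-fold. Most interferon response and cell division genes lie above the solid line, 5 CXC and 3 interleukin 1 family genes lie above the upper dashed line, Arg1 has the largest ratio (13.7-fold), and Ccl22, Ccl17 and Ccr7 lie below the lower dashed line.

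Most dendritic cell and macrophage marker genes were within 2-fold of the control. The control signal of Itgax, the integrin CD11c, was 2534.0 against 2394 in conditioned medium, and Cd74, the invariant chain of MHC class II, had 8171 and 7510. The macrophage genes Csf1r (7521 and 7015), C1qa (4601 and 4527) and Adgre1 (2444 and 2941) were bright on both arrays. Zbtb46, a transcription factor that defines classical dendritic cells, was close to the floor on both (56.1 and 56.5). Of 19 dendritic cell identity genes none was higher and 2 were lower, Ccr7, described below, and Cadm1, an adhesion molecule (111.9 and 36.9, at least 2.53-fold lower, log2 ratio -0.34 at the other probe set), with a median log2 ratio of 0. Of 20 macrophage markers 1 was 2-fold higher, Siglec1, which interferon also induces (42.5 and 91.4, at least 2.06-fold). In bulk RNA such as this, fewer cells of a type and less RNA per cell cannot be told apart, for these and all marker genes below.

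Markers of the tumour cells' lineage did not differ 2-fold between the 2 arrays with the floor at 44.3, and neither culture had 1D8 cells by the labels. None of 24 epithelial and mesothelial markers was 2-fold apart from the control. Their summed signal was 2497 in the control and 2396 in conditioned medium. It was 4348 and 5247 in the live and irradiated cocultures, where 7 and 8 markers were higher. Most of the control and conditioned medium sums came from Spint1, the brightest member (1553.6 and 1189.7). Of the 24 markers 4 had a log2 ratio above 0, among them Cdh1 (189.5 and 338.0) and Epcam (103.8 and 168.5), and 5 had one below. Krt19, a keratin, had signals of 8.6 in the control, 22.2 in conditioned medium, 569.7 in the live coculture and 767.4 in the irradiated coculture. The mesothelial gene Upk3b had 16.9, 6.1, 237.0 and 207.9 in the same order, and the ovarian surface transcription factor Wt1 had 5.3, 17.0, 174.3 and 218.6. Krt18 (58.3) and Cldn4 (72.6) exceeded the floor in conditioned medium and not in the control (9.9 and 18.3). None of 24 mesenchymal markers was 2-fold apart either, with a summed signal of 1752 and 1620. With the floor at the 25th percentile (12.9), 2 epithelial markers counted as higher, Krt18 and Cldn4, and Cldn3 (35.0 and 15.7) as lower, as did the mesenchymal genes Col6a1 (43.3 and 7.9) and Pdgfra (41.7 and 6.2). Lymphoid markers (0 of 15) did not differ 2-fold, and of 15 mast cell and basophil markers 1 did, Kit, the stem cell factor receptor, at least 2.22-fold lower.

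Of the 47 gene lists examined, the interferon response list was the longest and had the largest number of higher members in conditioned medium. By share (19.3%) it ranked below several shorter lists, among them DNA replication (38.5%), CXC chemokines (31.2%) and mitosis (29.6%). Of the 83 interferon response genes measured 16 were at least 2-fold higher and 1 was lower, against 2.3% and 1.41% of all genes. Of the 83, 79 exceeded the floor on either array, and among all such genes the shares were 3.59% and 2.2%. Of these 83 genes 64 had a log2 ratio above 0 and 15 below. Their median log2 ratio was 0.42, where the median of all genes was 0. All 16 had their highest signal of the 4 arrays in conditioned medium, and 12 of them were also 2-fold above both cocultures. Of the whole list 17 genes were 2-fold above both cocultures, against 114 of all genes (0.627%). In the live coculture 1 of the 83 was higher than the control and 6 were lower, with a median log2 ratio of -0.26, and in the irradiated coculture 1 was higher and 3 were lower, with a median of -0.18. The coculture arrays also carried the epithelial marker signals given above, whose part in these lower ratios was not tested.

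Promoter sequence in front of some of these genes is shown because the ISRE is the element that STAT2 and IRF9 act through. Its core was searched as GAAANNGAA on both strands of RefSeq promoter windows (GRCm38.p6), 250 bases before to 50 bases after a gene's start. Of 14452 measured genes with a window, 8.7% held a match, and 31 of 68 interferon response genes did (45.6%). Among the 16 that were 2-fold higher, 12 had a window and 4 of these held a match, Ddx60, Oas3, Stat2 and Trim30d. Capitals mark the match, on either strand, in the stretches that follow.
Ddx60, chr8:61928009-61928067, plus strand: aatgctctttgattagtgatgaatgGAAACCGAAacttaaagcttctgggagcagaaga
Ddx60, chr8:61928043-61928086, plus strand: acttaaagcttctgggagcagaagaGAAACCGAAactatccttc
Oas3, chr5:120777695-120777753, minus strand: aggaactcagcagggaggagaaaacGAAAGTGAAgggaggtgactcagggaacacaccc
Stat2, chr10:128270252-128270310, plus strand: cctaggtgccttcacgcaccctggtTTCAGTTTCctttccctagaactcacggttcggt
Trim30d, chr7:104507856-104507914, minus strand: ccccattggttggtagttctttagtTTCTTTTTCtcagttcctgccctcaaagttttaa

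The pair in Ddx60 begins 53 and 19 bases before the start, and the match in Oas3 begins 69 bases before it and overlaps a second match 6 bases further upstream. That in Stat2 lies farther away, at 221 bases. Of all 2-fold higher genes 11.1% held a match, near the share of all genes. A match is a description of these letters and does not show that a factor binds there.

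Among the sensors, the proteins that detect viral RNA or DNA, 5 of 18 were higher, none was lower, 17 had a ratio above 0, and the median log2 ratio was 0.69. Ddx60, a helicase that helps RNA sensing, had signals of 59.2 in the control, 218.6 in conditioned medium, 83.6 in the live coculture and 75.7 in the irradiated coculture (3.69-fold higher than the control). Conditioned medium stood alone, with the other arrays within a range of 59.2 to 83.6. Oas2 and Oas3 encode enzymes that make the second messenger of RNase L, and Oasl2 a related protein. For Oasl2 the arrays gave 291.1, 743.5, 164.0 and 199.8 in that order (2.55-fold higher). Oas2 had 132.9, 318.2, 91.6 and 75 (2.39-fold higher), and Oas3 had 315.5, 702.5, 180.9 and 235.1 (2.23-fold higher). In each of these 3 genes the cocultures were below the control while conditioned medium was above it. Ifi204, of a DNA-sensing family with near-identical members that probe sets may not separate, was 2.19-fold higher (133.8 and 292.8). Below 2-fold, the RNA sensor Ifih1 had 374.1 and 559.5, and Eif2ak2, the kinase PKR, had 123.0 and 201.2 at its brightest probe set, while its other probe sets had log2 ratios of 1.01 to 1.84.

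Of 9 transcription factors of the response, Irf7 and Stat2 were higher and none was lower. Irf7, which amplifies interferon production, had 287.3 in the control, 941.6 in conditioned medium, 268.7 in the live coculture and 290.8 in the irradiated coculture (3.28-fold higher). The control and both cocultures lay within a narrow range, and conditioned medium was far above it. Stat2 had 153.4, 456.8, 149.3 and 176.2 (2.98-fold higher), and its other probe set had a log2 ratio of 1.19. Irf9, its partner, had 302.1 and 404.9 (1.34-fold higher), and Irf1 had 827.3 and 902.6.

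Antiviral effectors held the largest ratio of the list. Ifit2, which blocks translation of viral RNA, had signals of 66.2 in the control, 345.3 in conditioned medium, 51.9 in the live coculture and 53.9 in the irradiated coculture (5.22-fold higher). Its relatives did not reach 2-fold: Ifit3 had 96.8 and 146.4, and Ifit1 had 103.1 and 110.9. Mx1, an antiviral GTPase, had 76.9, 168.6, 53.7 and 52.9 in the order of arrays above (2.19-fold higher). Rtp4, a chaperone that interferon induces, had 384.1, 1007, 198.9 and 222.5 (2.62-fold higher). Both followed the order of Ifit2, with the cocultures lowest. Xaf1, a pro-apoptotic gene, was 2.38-fold higher, with a log2 ratio of 0.22 at its other probe set, and Trim30d, of a family of near-identical ubiquitin ligase genes, was 2.31-fold higher (log2 ratio 0.94 at the other probe set). Ms4a4c, a membrane protein gene of monocytes, was 2.23-fold higher (log2 ratio 1.12 at the other probe set).

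Ifitm6, Sp100 and Pml, and Ddx60 above, differed from this order, because both cocultures too were above the control. For Irf7, Stat2, Trim30d and Ifi204 the irradiated coculture was above the control and the live coculture below it. Ifitm6, a membrane protein gene of myeloid cells, had 232.7 in the control, 943.5 in conditioned medium, 736.6 in the live coculture and 903.9 in the irradiated coculture (4.05-fold higher than the control). It was the 1 gene of the list that was 2-fold higher than the control in either coculture. Sp100 (2.21-fold) and Pml (2.05-fold) encode proteins of nuclear bodies, and other probe sets had log2 ratios of 0.11 for Sp100 and 0.08 to 0.66 for Pml. The gene that was lower was Nmi, an interferon-inducible adaptor, with 350.3 and 168.4 (2.08-fold lower). None of 6 genes of the ISG15 pathway and feedback was 2-fold apart. Usp18, the protease that shuts off the interferon receptor, had 336.8, 549.5, 160.3 and 183.5. It was under 2-fold against the control and over 2-fold above either coculture. Values of members under 2-fold were chosen for the text after they had been seen.

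**Figure D2:**
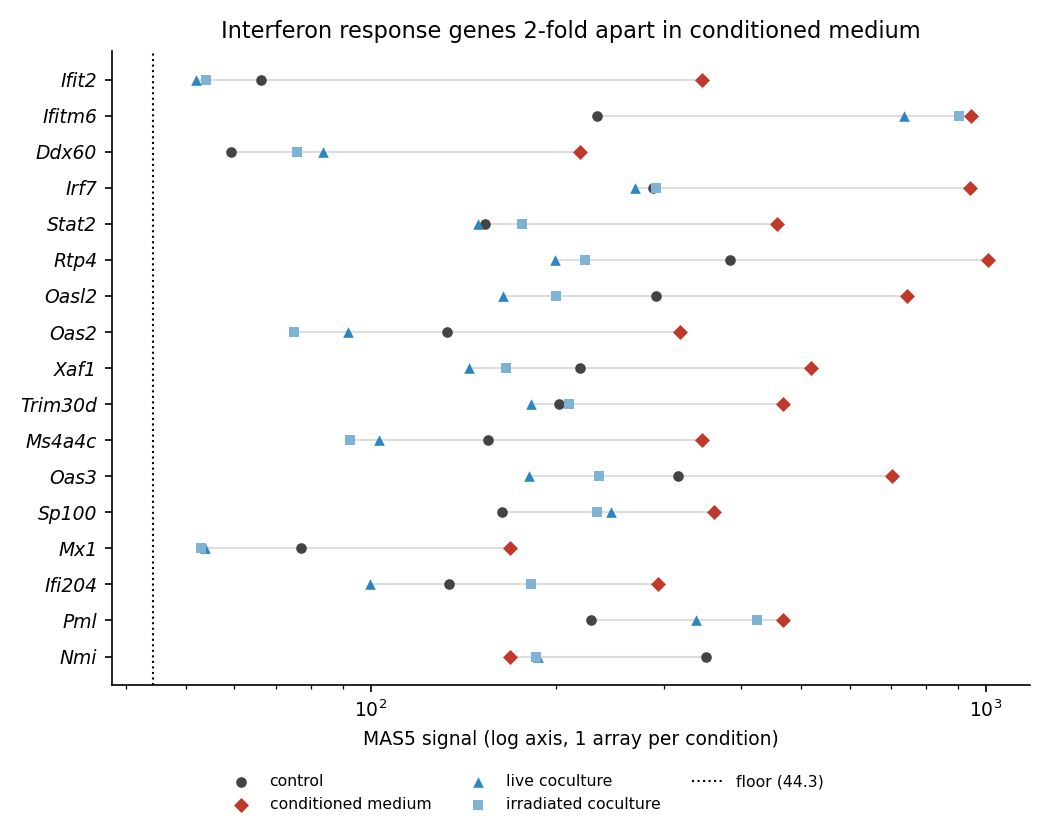
The 17 interferon response genes at least 2-fold apart between conditioned medium and control, with the signal on each of the 4 arrays on a log axis; the dotted line is the floor of 44.3. The conditioned medium point is the rightmost for 16 genes, and Nmi has the opposite order, with 350.3 in the control and 168.4 in conditioned medium.

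The genes of the interferons themselves were dim. Of 9 measured genes of type I and III interferons 2 exceeded the floor on either array, and both did so in the control, Ifna1 (83.4 and 31.1) and Ifnb1 (56.1 and 32.7). None was 2-fold apart. Receptor and kinase genes were also within 2-fold at their brightest probe sets (0 of 10). Tyk2 had 397.2 in the control and 393.4 in conditioned medium. Jak1 had 1485 and 1408, but its other probe sets had log2 ratios of -0.14 and 1.63, and Ifnar1 had 477.8 and 433.5 with a log2 ratio of 0.46 at its other probe set, so no direction is given for either. The brightest probe set of Ifnar2 was 1.53-fold higher, while its other probe sets had log2 ratios of -0.59 and -0.05, and it too is given no direction. Of the 13 genes that bear on the study's title, Irf7 and Stat2 were those 2-fold apart. Tlr3 had 80.6 and 91.9, its adaptor Ticam1 213.1 and 241.0, and the kinases Tbk1 747.2 and 791.6 and Ikbke 524.9 and 678.5. Irf3, the factor they activate, had 440.6 and 536.8. Socs3 had 399.9 in the control, 705.7 in conditioned medium, 953.9 in the live coculture and 1486 in the irradiated coculture, and its other probe sets had log2 ratios of 0.58 and 0.65 in conditioned medium. Conditioned medium lay between the control and the cocultures for Socs3, and it was the highest array for Irf7 and Stat2.

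Genes known as strong targets of interferon gamma were within 2-fold with 1 exception. Of 10 GBP and IRG GTPase genes, which attack vacuoles of intracellular microbes, Gbp8 was higher (174.5 and 432.3, 2.48-fold) and the median log2 ratio was 0.31. The chemokine genes Cxcl9 (30.9 and 14.3), Cxcl10 (30.0 and 43.9) and Cxcl11 (17.5 and 16.4), targets of the same cytokine, were under the floor on both arrays. Of 8 schlafen genes, which restrain growth of leukocytes and are interferon-inducible in part, 2 were higher. Slfn4 had 175.6, 1015, 745.9 and 968.6 in the control, conditioned medium, live and irradiated coculture (5.78-fold higher), and Slfn1 had 139.2, 556.3, 391.4 and 663.1 (4.0-fold higher). The cocultures were well above the control for both, unlike Irf7, where they were near it, or Oas2, where they were below it.

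Chemokines that attract neutrophils through CXCR2 were the other prominent group, and here conditioned medium lay below the cocultures. Of 16 CXC chemokine genes, 10 of them above the floor, 5 were higher and none was lower. Cxcl1 had signals of 62.7 in the control, 576.4 in conditioned medium, 1293 in the live coculture and 1701 in the irradiated coculture (9.19-fold higher than the control), and its other probe sets had log2 ratios of 1.27 and 1.93. Cxcl3 had 191.6, 1385, 2934 and 4174 (7.23-fold higher), and Cxcl2 had 423.9, 1782, 6714 and 7402 (4.20-fold higher). Ppbp, the platelet basic protein gene, had 472.4, 1735, 843.7 and 2304 (3.67-fold higher). Cxcl14 passed narrowly (30.2 and 90.7, at least 2.05-fold). Of these 5, all but Ppbp were lower in conditioned medium than in either coculture.

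Promoters of the 3 neutrophil chemokines are shown because they share the NF-kappaB element at a similar distance from the start. It was searched as GGGANTTNC on both strands of the same windows. A match stood in 5.37% of all genes with a window, in 5 of 12 CXC chemokine genes (41.7%) and in 3 of the 5 that were higher. Capitals mark the match, which begins 71 bases before the start in Cxcl1, 97 in Cxcl2 and 73 in Cxcl3. Il6 is added as a cytokine gene with the same element, 44 bases before its start.
Cxcl1, chr5:90891149-90891207, plus strand: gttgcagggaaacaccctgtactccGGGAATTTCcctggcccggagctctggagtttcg
Cxcl2, chr5:90903777-90903835, plus strand: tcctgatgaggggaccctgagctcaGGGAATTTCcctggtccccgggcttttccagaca
Cxcl3, chr5:90786003-90786061, plus strand: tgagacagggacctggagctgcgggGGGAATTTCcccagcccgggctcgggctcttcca
Il6, chr5:30013045-30013103, plus strand: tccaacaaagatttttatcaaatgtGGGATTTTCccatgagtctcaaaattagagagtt

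The match has the same letters in the 3 chemokine genes, which neighbour each other on chromosome 5, and differs in Il6. The share of all 2-fold higher genes with a match was 6.71%, near that of all genes, and that of the 2-fold lower genes was 7.37%. Of 13 interleukin 1 family genes with a window 0 held a match, and of 22 mitosis genes 4 did (18.2%).

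Some interleukin 1 genes and other inflammatory mediators were higher too. Of 15 genes of the interleukin 1 family 3 were higher and none was lower. Il1b had 185.2 in the control, 875.1 in conditioned medium, 1990 in the live coculture and 2349 in the irradiated coculture (4.73-fold higher), and Il1a had 70.6, 187.2, 870.1 and 448.1 (2.65-fold higher). Il1f9, the interleukin 36 gamma gene, was 2.85-fold higher (45.9, 131.0, 113.5 and 123.7). Il1b and Il1a were below both cocultures, and Il1f9 was highest in conditioned medium. Of 24 other cytokine genes, 10 of them above the floor, Il6 was higher, with 35.0, 115.8, 365.3 and 369.1 (at least 2.61-fold). Tnf had 188.4 and 248.4, and Il12b, a subunit of interleukin 12, had 99.6 and 119.8. Among 21 genes of prostaglandin and leukotriene pathways 2 were higher, Ptgs2, the inducible cyclooxygenase (82.2, 304.6, 1055 and 1038, 3.71-fold, log2 ratio 1.58 at the other probe set), and Ltc4s, which makes leukotriene C4 (253.4, 659.2, 583.9 and 644.2, 2.60-fold). Receptors for leukotrienes were also among the 20 highest ratios, Cysltr1 (75.3 and 314.5, 4.18-fold, log2 ratio 1.20 at the other probe set) and Ltb4r1 (89.8 and 358.9, 4.0-fold).

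The largest ratio of all ranked genes was that of Arg1, the arginase that consumes arginine. The arrays gave 427.2 in the control, 5847 in conditioned medium, 8117 in the live coculture and 8843 in the irradiated coculture (13.7-fold higher). Conditioned medium was thus closer to the cocultures than to the control. The rest of the arginine list did not move with it: of 19 genes Arg1 was the 1 higher and Srm, spermidine synthase, the 1 lower (514.7 and 213.6, 2.41-fold), and Nos2, the inducible nitric oxide synthase, was under the floor (4.7 and 6.5). Gatm, which uses arginine to make the creatine precursor, was outside that list and 4.75-fold higher (86.1 and 409.1). Of 22 suppressive and regulatory molecules none was 2-fold apart. Cd274, the ligand PD-L1, had 1090 and 926.0, Ido1 was under the floor (27.1 and 40.8), and Vegfa had 453.6 and 806.6 against 1706 and 2504 in the cocultures.

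CC chemokine genes did not share the pattern of the CXC genes. None of 19 was higher in conditioned medium, where 6 were higher in the live coculture and 4 in the irradiated coculture. Ccl2, which attracts monocytes, had 895.8 in the control, 1007 in conditioned medium, 7241 in the live coculture and 6480 in the irradiated coculture. Ccl7, with the same receptor, had 133.0, 197.9, 1995 and 1199. Both stayed near the control in conditioned medium. Immediate early genes, which follow recent growth factor or stress signals, were higher for 2 of 29 and lower for 3, with a median log2 ratio of 0.08, against medians of 0.94 and 1.21 in the live and irradiated cocultures. Dusp6, a phosphatase of ERK kinases, had 374.4, 1419, 2348 and 2718 (3.79-fold higher), and the transcription factor gene Atf3 had 1377, 638.0, 1343 and 971.1 (2.16-fold lower).

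Hypoxia and glycolysis genes were higher for 5 of 32, none was lower, and the median log2 ratio was 0.42, against 19 of 32 and 1.16 in the live coculture and 20 of 32 and 1.38 in the irradiated coculture. All 5 were below both cocultures. Bnip3, a mitophagy receptor, had 244.7 in the control, 737.5 in conditioned medium, 2863 in the live coculture and 3719 in the irradiated coculture (3.01-fold higher). Egln3, an oxygen-sensing hydroxylase, had 39.8, 162.8, 1055 and 1412 (at least 3.67-fold higher), with a log2 ratio of 0.41 at its other probe set. The glucose transporter gene Slc2a1 (591.5 and 568.5) and the lactate dehydrogenase gene Ldha (4690 and 4436) did not follow in conditioned medium, while in the cocultures Slc2a1 had 2214 and 2659 and Ldha had 7522 and 8099.

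**Figure D3:**
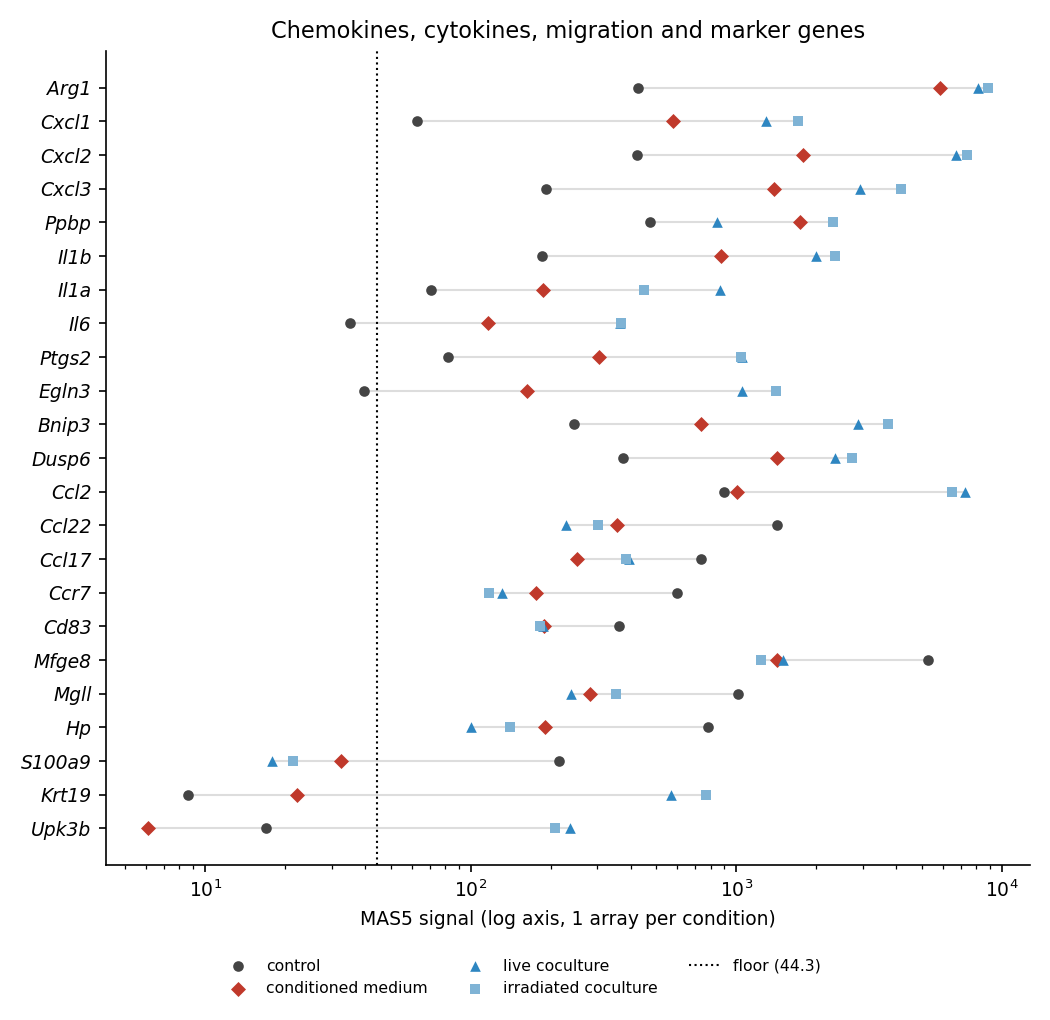
Signals of 23 genes on the 4 arrays on a log axis, with the floor of 44.3 dotted. For Arg1, the CXC and interleukin 1 genes, Bnip3 and Dusp6 conditioned medium lies between the control and at least 1 coculture; Ccl2 is near the control; Ccl22, Ccl17, Ccr7, Mfge8 and Hp are lower than the control on all treated arrays; Krt19 and Upk3b are under the floor in control and conditioned medium.

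Of 23 dendritic cell maturation genes 4 were lower and 3 were higher, with 10 ratios above 0 and 12 below. Ccl22, a chemokine that draws regulatory and helper T cells, had 1417 in the control, 355.6 in conditioned medium, 229.1 in the live coculture and 300.8 in the irradiated coculture (3.98-fold lower). Ccl17, its neighbour in function, had 736.6, 250.9, 394.9 and 384.2 (2.94-fold lower), and Ccr7, the receptor that leads dendritic cells to lymph nodes, had 596.4, 175.7, 131.6 and 117.5 (3.39-fold lower). Ly75, the endocytic receptor DEC-205, was 2.18-fold lower (126.6 and 58.1). In each of these 4 lower genes the control was above all 3 treated arrays. Cd83 (361.2 and 188.1), Cd200 (230.1 and 122.1) and Relb (144.2 and 77.6) were close to 2-fold lower without reaching it. After quantile normalization or median centring 6 members counted as lower.

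The same list also had 3 higher members. They were Tnfsf9, the ligand of 4-1BB (73.4 and 242.4, 3.30-fold), Marcksl1, a relative of the actin-binding protein MARCKS (427.1 and 923.1, 2.16-fold) and Cd80 (85.5 and 201.3, 2.35-fold, log2 ratio 0.46 at the other probe set). CD80 is the surface protein named for the sort. If these cells were gated on it, the level of Cd80 is not independent of the gate. Cd86, which shares its receptors, had 149.1 and 222.0 (log2 ratio -0.39 at the other probe set), and Cd40 had 55.3 and 64.5. The median log2 ratio of all 23 was -0.24.

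MHC class II genes were close to the control in conditioned medium, and the cocultures were lower. None of 16 was 2-fold apart in conditioned medium and the median log2 ratio was 0.02, while 3 were lower in the live coculture (median -0.56) and 2 in the irradiated coculture (median -0.42). H2-Ab1 had 2813 in the control, 2931 in conditioned medium, 1382 in the live coculture and 1444 in the irradiated coculture. Ciita, the master regulator of these genes, had 178.4, 176.7, 48.5 and 64.9, and H2-Eb1 had 4244, 3528, 1348 and 1653. In all 3 the control and conditioned medium were together and the cocultures apart. Of the 16 genes 5 were 2-fold above both cocultures, against 0.627% of all genes. For MHC class I presentation 1 of 18 was lower, Tapbpl, a peptide editor (155.9 and 58.7, 2.66-fold), with a median of -0.07.

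Genes of dividing cells were higher in conditioned medium. Of 26 DNA replication genes 10 were higher, none was lower, 23 ratios were above 0, and the median log2 ratio was 0.77. Of 27 mitosis genes 8 were higher, none was lower, 26 were above 0, and the median was 0.79. Several of the 18 passed narrowly, and after median centring 6 replication and 5 mitosis genes counted as higher. The live coculture was similar, with 5 and 8 higher and medians of 0.56 and 0.75. In the irradiated coculture 2 and 1 were higher with medians of 0.00 and 0.37, and conditioned medium exceeded it in 24 of 26 replication and 25 of 27 mitosis genes. Both coculture arrays carried the epithelial marker signals given above, and the part of tumour cell RNA in their cell division values was not tested.

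Tk1, thymidine kinase, had the largest ratio of the replication genes, with 180.1 in the control, 694.0 in conditioned medium, 554.5 in the live coculture and 333.4 in the irradiated coculture (3.85-fold higher). The control was lowest and conditioned medium highest. Cdc6, which loads the replicative helicase, had 53.1 and 136.6 (2.57-fold), and Prim1, a primase subunit, had 184.9, 465.5, 390.4 and 257.0 (2.52-fold, log2 ratio 1.00 at the other probe set). Rfc3, of the clamp loader, had 74.4, 182.7, 186.1 and 128.7 (2.46-fold, log2 ratio 0.98 at the other probe set). The sliding clamp gene Pcna was less different, with 3609 and 4688, and Fen1, a flap nuclease, went against the rest at its brightest probe set (796.5 and 481.8) but not at its other one (log2 ratio 0.21).

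Anln, which organises the contractile ring, led the mitosis genes with 201.2 in the control, 661.8 in conditioned medium, 630.3 in the live coculture and 483.3 in the irradiated coculture (3.29-fold higher). Kif11, a spindle motor, had 117.9, 330.3, 299.9 and 219.2 (2.80-fold, log2 ratios 1.04 to 2.54 at the other probe sets), and Nusap1, a spindle protein, had 283.7, 718.0, 550.8 and 408.6 (2.53-fold). Bub1, a checkpoint kinase, had 189.8, 437.2, 441.2 and 311.8 (2.30-fold). All 4 had the control lowest, followed by the irradiated coculture. Mki67, the common marker of cycling cells, had 886.3 and 1556, short of 2-fold. Esco2, a cohesin enzyme of S phase among the 20 highest ratios, was at least 5.10-fold higher (39.4 and 226.1), with a log2 ratio of 0.28 at its other probe set.

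The E2F element, searched as TTTNGCGC on both strands and added after the values of these genes were seen, stood in 2.32% of all genes with a window, in 9 of 22 DNA replication genes (40.9%) and in 1 of 22 mitosis genes (4.55%). Among the 8 higher replication genes with a window 2 held it, of which Rfc3 is shown with the match in capitals, beginning 10 bases before the start.
Rfc3, chr5:151651209-151651243, minus strand: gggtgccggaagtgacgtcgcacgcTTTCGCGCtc

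The genes with the element thus included replication genes with small ratios, such as Mcm5 (log2 ratio 0.57) and Mcm6 (0.67). The element stood in 4.08% of all 2-fold higher genes and in 4.15% of the 2-fold lower genes. It also stood in 3 of 18 respiratory chain genes (16.7%).

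**Figure D4:**
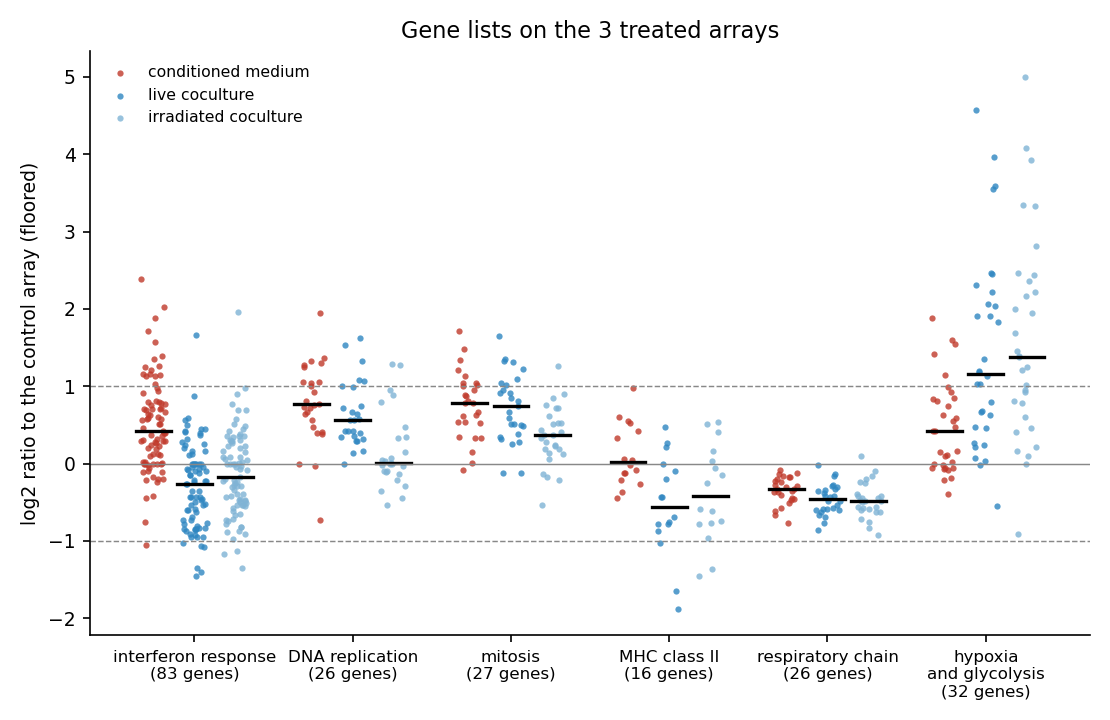
Log2 ratios to the control array of every measured member of 6 gene lists, for conditioned medium, live coculture and irradiated coculture; black bars are medians and dashed lines 2-fold. The interferon median is 0.42 in conditioned medium and below 0 in both cocultures, the replication median is 0.77 in conditioned medium and 0.00 in the irradiated coculture, MHC class II is near 0 in conditioned medium alone, and all 26 respiratory chain genes are below 0 in conditioned medium.

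Of 21 neutrophil and granule genes 5 were lower and 1 was higher, and 15 of the 21 exceeded the floor on either array. The calprotectin subunit genes were among the lower ones, S100a9 with 214.3 in the control, 32.5 in conditioned medium, 17.8 in the live coculture and 21.4 in the irradiated coculture (at least 4.84-fold lower) and S100a8 with 963.6, 382.6, 557.2 and 757.1 (2.52-fold lower). Hp, haptoglobin, had 782.6, 189.9, 100.5 and 140.8 (4.12-fold lower), Ctsg, the granule protease cathepsin G, had 232.8, 62.0, 28.4 and 14.3 (3.75-fold lower), and Ngp, a granule protein, had 421.2, 145.3, 89.2 and 121.7 (2.90-fold lower). In all 5 the control was the highest array. The summed signal of the list was 9617 in the control and 9299 in conditioned medium, because Mmp8, its brightest member, had 5677 and 6902. Other granule genes were closer to the control, among them the proteases Elane (158.8 and 128.5) and Prtn3 (183.2 and 243.1), the peroxidase Mpo (114.4 and 94.4) and the iron-binding proteins Lcn2 (105.6 and 126.5) and Ltf (58.1 and 49.1). Padi4, a histone-modifying enzyme of neutrophils, was 5.40-fold higher (81.8 and 441.5). Some monocyte genes were higher. F13a1, a clotting factor subunit, had 468.8 and 1205 (2.57-fold higher), and Ccr2, the CCL2 receptor, had 803.8, 1840, 675.6 and 701.3 (2.29-fold), but the log2 ratios of its other probe sets spread from -0.33 to 3.56. Of 9 monocyte markers 3 were higher and 1, Hp, was lower.

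Surface receptors of phagocytes were higher in a few cases. Itgam, the integrin CD11b, had 1038, 2741, 2846 and 3675 in the order control, conditioned medium, live and irradiated coculture (2.64-fold higher), and Fcgr4, an activating Fc receptor, had 572.3, 1226, 1514 and 2173 (2.14-fold), the 2 of 18 Fc, complement and integrin receptor genes that differed. Both were below the cocultures and well above the control. Fpr2, a receptor for bacterial and damage peptides, had 328.2 and 1134 (3.45-fold). Tlr8, a sensor of single-stranded RNA, was 2.12-fold higher (217.0 and 460.3), and Nfkbiz, a nuclear partner of NF-kappaB, was 2.45-fold higher (155.2 and 380.8, log2 ratios 1.29 to 1.53 at the other probe sets).

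Several lipid genes were lower. Mgll, which cleaves monoglycerides, had 1016 in the control, 280.1 in conditioned medium, 239.4 in the live coculture and 351.2 in the irradiated coculture (3.63-fold lower, log2 ratios -2.64 and -2.07 at the other probe sets). The lipid droplet gene Plin2 had 4616, 1938, 2986 and 3417 (2.38-fold lower). Fabp4, a fatty acid carrier, had 4012, 1909, 448.8 and 377.2 (2.10-fold lower, log2 ratios -1.06 to -0.22 at the other probe sets). For Plin2 conditioned medium was the lowest array, and for Fabp4 the cocultures were. By their brightest probe sets 1 of 21 lipid handling genes was higher and 3 were lower. The higher one was Scd2, a fatty acid desaturase (633.5 and 1861, 2.94-fold, log2 ratios 2.20 and 2.44 at the other probe sets). As the mean over probe sets 2 were higher and 2 lower. The lipid efflux gene Abca1 had 1754.5 and 2161.3 at its brightest probe set, but log2 ratios of 3.281 and 2.605 at its other probe sets. Of 23 genes of sterol and fatty acid synthesis 4 were lower and none was higher. They were Hmgcs1, an early enzyme of cholesterol synthesis (1101 and 493.0, 2.23-fold), Cyp51 (177.9 and 76.9, 2.31-fold), the feedback regulator Insig1 (310.3 and 134.1, 2.31-fold) and fatty acid synthase, Fasn (291.1 and 144.0, 2.02-fold). The median of that list was -0.12.

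Mfge8, which bridges dying cells to phagocytes, had 5253 in the control, 1417 in conditioned medium, 1500 in the live coculture and 1236 in the irradiated coculture (3.71-fold lower). It was the brightest of the 20 lowest ratios, and the treated arrays were together. Among the rest of the 20, Npy, neuropeptide Y, set conditioned medium apart from the cocultures, with 1037, 245.3, 863.1 and 643.8 (4.23-fold lower). Fstl1, a secreted glycoprotein, was 3.85-fold lower with a log2 ratio of -1.99 at its other probe set. Ap1m1, an adaptor subunit of vesicle transport, was 4.51-fold lower (1725 and 382.6) with a log2 ratio of -0.21 at its other probe set, so its size rests on 1 probe set. Chaperone genes were lower for 2 of 11, Bag3 (381.6, 127.2, 214.8 and 282.0, 3.00-fold) and Hsph1 (422.3, 153.3, 400.2 and 427.6, 2.75-fold, log2 ratio -0.38 at the other probe set). Here too conditioned medium was the lowest array.

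**Figure D5:**
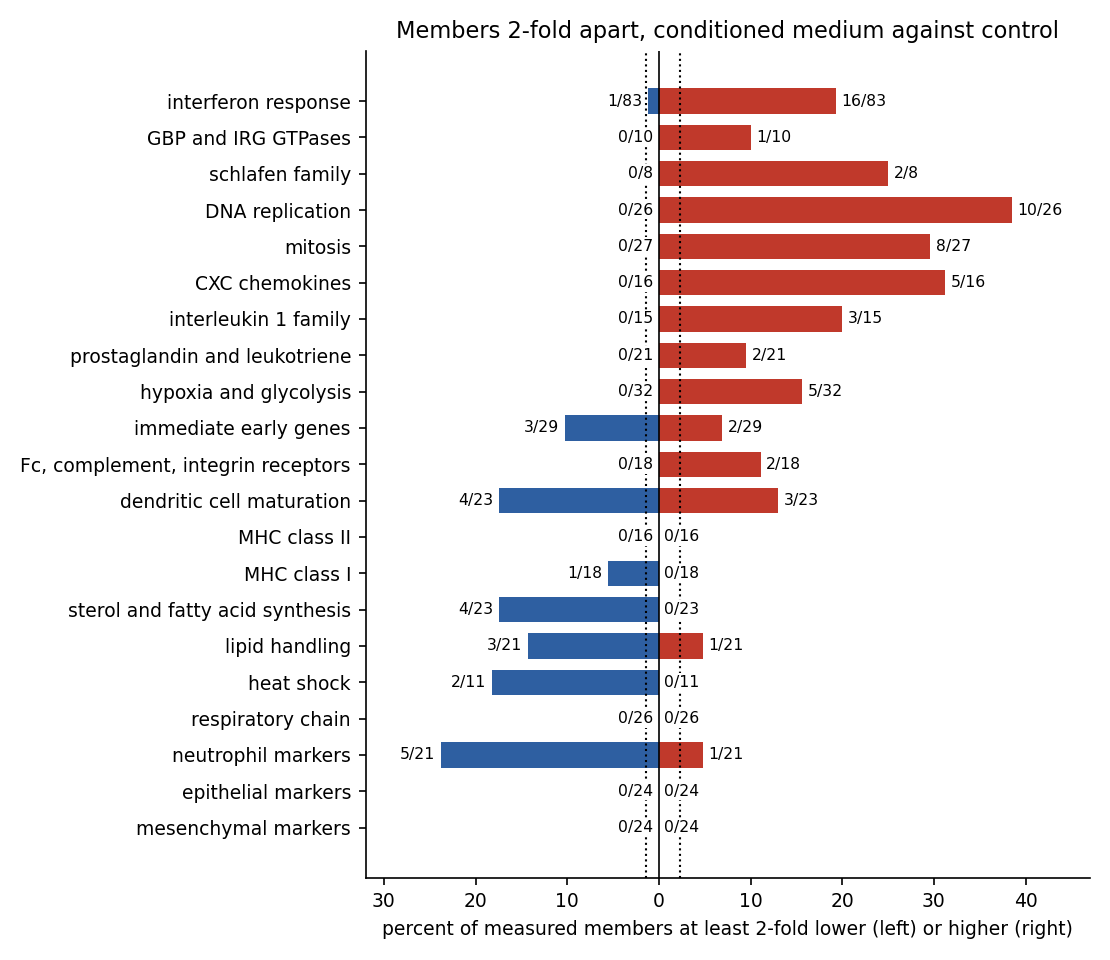
Percent of the measured members of 21 gene lists that were at least 2-fold higher (right) or lower (left) in conditioned medium than in control, with the counts at the bar ends. Dotted lines mark the shares of all genes, 2.3% and 1.41%. Among genes above the floor on either array the shares were 3.59% and 2.2%. DNA replication (10 of 26), CXC chemokines (5 of 16), mitosis (8 of 27) and interferon response (16 of 83) extend to the right, and neutrophil markers (5 of 21) to the left.

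Respiratory chain genes, which encode the mitochondrial complexes of oxidative phosphorylation, were lower by a small amount throughout. None of 26 was 2-fold apart, but all 26 had a log2 ratio below 0 as deposited and 22 after quantile normalization, with a median of -0.34 as deposited. All 26 were below 0 after median centring too, but centring lowered ratios in general and could not have given fewer. The median over genes above the floor on both arrays went from 0.002 to -0.089. Cox5b, a cytochrome oxidase subunit, had 4093 and 2402 (log2 ratio -0.77), Sdhb, of succinate dehydrogenase, had 2343 and 1472 (-0.67), and Cycs, cytochrome c, had 3073 and 2897 (-0.09). The cocultures had medians of -0.46 and -0.48. Bright genes in general had lower ratios: of 1250 genes with a mean signal of at least 1000, 879 (70.3%) were below 0 with a median of -0.17, and the 4509 genes between the floor and 200 had a median of 0.12. The part of this trend in the respiratory chain values was not tested.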

How the data were processed

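The authors deposited 1 intensity signal per probe set and array on a linear scale, made with GCOS 1.4 and MAS5 per the submitters' processing notes, from Affymetrix mouse arrays with 45101 probe sets. No further scaling was applied. MAS5 subtracts mismatch probes, so ratios of dim probe sets are noisy. After 64 control probe sets were left out, 34945 were assigned to 1 gene, and the 10092 without a single gene were not used for genes. Symbols were matched to RefSeq (GRCm38.p6) by Entrez identifier for 34741. Each gene was read from its brightest probe set by mean log2 signal. The floor of 44.3 was the 50th percentile of signals pooled over the 4 arrays without control probe sets. A ratio against a signal at or under it is a lower bound ("at least"). With 1 array per condition the number of arrays limits the precision, and no test was run.

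The comparison, the 47 gene lists and the alternatives were chosen with earlier results of these data known. The naming rules picked the 20 highest and 20 lowest ratios (clone or model symbols skipped) and interferon response and GTPase members at 2-fold. They also picked up to 4 of every other list at 2-fold, the brightest 3 of lists without any, genes of the series' title, and markers of other cells. Not all of these are described. Zfand4, Rnase2a, Klra2 and Serf1 of the highest ratios are left out. So are Mamdc2, Aven, Ptpn23, Sco2, Mrps18b, Nrip2, Ercc2, Gpr137b and Rragd of the lowest, and some list members and markers. Genes outside these rules were chosen after their values were seen. Alternatives were floors at the 25th (12.9) and 75th (155.6) percentile, quantile normalization, median centring, the mean over probe sets, and a 3-fold threshold. Python 3.11.15 with pandas 2.3.3 was used, and the steps were tested on simulated data.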

Additional observations from a re-analysis of the deposited data

How the results depend on the processing

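With 1 array per condition no replicate could be left out. No paired analysis was possible because each group holds 1 array and no test was made. With the floor at the 25th percentile 1088 genes were higher and 597 lower, and at the 75th percentile 170 and 137. Median centring left 315 higher and 386 lower, the mean over probe sets 314 and 145, and a 3-fold threshold 61 and 37. Interferon response genes counted as higher numbered 13 to 17 under the alternatives at 2-fold and 4 at 3-fold. DNA replication genes numbered 5 with the floor at the 75th percentile, 6 after median centring and 1 at 3-fold, and mitosis genes 5 after median centring, 5 as the mean over probe sets and 1 at 3-fold. Of 113 genes 2-fold apart that the naming rules picked, described above or not, none changed direction under the 5 alternatives other than 3-fold. However, 10 of them had both signals at or under the floor of the 75th percentile. A changed floor cannot reverse a sign, and these genes were taken for large ratios on the same arrays. The unchanged directions therefore say little about stability. Of the 113 genes 54 remained 2-fold apart under all 5. Signals near the floor limit what can be said of the interferon genes, most cytokines and many cell markers. Of 18193 genes 6531 were at or under the floor on both arrays.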

Other observations

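Probe sets without a single gene were set aside. Of these 10092, 127 were 2-fold above the control in conditioned medium and 51 were 2-fold below it.

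Several genes with large ratios belong to no list above. Serpinb2, a protease inhibitor of activated macrophages, had signals of 86.6 in the control, 475.4 in conditioned medium, 211.1 in the live coculture and 124.5 in the irradiated coculture (5.49-fold higher than the control). Conditioned medium was the highest array by a wide margin. Fabp7, a fatty acid carrier, had 84.5, 450.5, 601.8 and 428.6 in the same order (5.33-fold higher). Bex1, a small adaptor protein gene, had 233.6, 22.6, 20.3 and 17.3 (at least 5.27-fold lower), and Tusc1 had 942.0, 225.7, 128.2 and 137.3 (4.17-fold lower). The treated arrays were together in the latter genes and apart from the control.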
